A study of Bos taurus with 12 samples.

Results

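Olfactory receptor genes were followed in the methylation of blood DNA from 12 dairy cows. The genes were taken by name, as every gene of both deposited tables whose symbol has the form of an olfactory receptor (OR, a family number, subfamily letters and a gene number). This gave 331 of the 11830 gene symbols with a listed site. They were the nearest genes of 1397 of 196275 listed CpG cytosines (sites) and of 10 of 1227 listed windows of 500 bases (tiles), and 5 of them had a tile.

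The study drew blood from cows kept together on one farm and looked back 1 year later. The mastitis susceptible group (MSG, 6 cows) had been culled in that time for complications of mastitis, an inflammation of the udder, that were unknown at sampling. The mastitis resilient group (MRG, 6 cows) was still in the herd and had similar ages. Enzymatic methylation sequencing gave the percent of reads that kept a cytosine, so that 0% is an unmethylated and 100% a fully methylated position. No treatment, breed, parity or blood cell count was labelled, and both groups were sampled as blood, in which a shift in cell types and a change within cells cannot be told apart.

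Olfactory receptors are G protein-coupled receptors that detect odorants in the nose. Each olfactory neuron expresses a single receptor allele and keeps the others silent in closed chromatin. The genes form clusters that grew by duplication, many copies are pseudogenes, and most have no described role in blood. Class I receptors (families 51, 52, 55 and 56) are the older group, and class II receptors hold the other families. Neighbouring copies can be near-identical, so reads may have been assigned to the wrong copy, and values of single copies are uncertain for that reason.

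The listed sites lay around these genes rather than in them. The median gene model was 945 bases long, and 87 of the 1397 sites (6.23%) fell inside the annotated gene, beside 23.0% of all listed sites. By the authors' annotation 1039 sites (74.4%) were distal intergenic, 317 (22.7%) lay in promoters, which reach 3 kb from a start, and 37 were in introns. Promoter sites made up 5.44% of all listed sites. The median distance to the start was 8.53 kb for olfactory receptor sites and 45.2 kb for all listed sites. Only 3 sites were in exons and 1 in a 3′ untranslated region. Both exon sites of OR51G2 (chromosome 15) lay 13.0 kb from its start, in exon 2 of 2, and the exon site assigned to OR8B1 (chromosome 29) belonged to a transcript of another gene.

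Few of the known genes of the family were in the tables, and few had many sites. The gene table of assembly ARS-UCD2.0 named 1861 olfactory receptor genes, of which 791 are pseudogenes, and 325 of the 1861 had a listed site. Of the 1070 named there as protein coding, 306 (28.6%) had one. By gene identifier, 330 of the 331 genes matched that table, 310 as protein coding and 20 as pseudogenes. No more than 1 listed site was found for 150 genes, and the median was 2 sites per gene, beside 4 for all genes. At the other end, 27 genes with 10 or more sites held 716 sites (51.3%).

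More olfactory receptor sites were higher in MSG than lower. Of 1397 sites, 878 (62.8%) were higher in MSG and 519 lower, beside a background of 52.7% higher over all listed sites. Averaged over these sites, methylation was 50.6% ± 2.37 for MSG and 41.8% ± 4.06 for MRG (SD, 6 cows each). The lowest, median and highest cow stood at 46.3%, 51.3% and 52.6% in MSG and at 36.5%, 41.1% and 46.7% in MRG. The groups overlapped, since MSG replicate 1 lay below MRG replicates 3 and 4. Every listed row had been chosen by the authors for a difference of at least 25 percentage points on these same cows, so this gap describes the selected rows and no test is given for it.

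The count of genes was closer to even. Of the 331 genes, 173 had most of their sites higher in MSG, 142 had most lower and 16 were split. Without the loci on chromosomes 9 and 29 described below, 58.2% of 1062 sites were higher, and without OR9G1 as well the share was 54.5%.

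Direction differed with position. Among promoter sites 155 of 317 (48.9%) were higher in MSG, and among distal intergenic sites 705 of 1039 (67.9%) were. Over all listed sites these shares were 54.4% and 52.8%. Outside the loci on chromosomes 9 and 29 the 2 shares of olfactory receptor sites were 44.4% and 63.5%. Single genes with many sites weigh on such shares. Higher in MSG were 95 of 102 sites at OR9G1, 35 of 35 at OR4C1E and 1 of 38 at OR5AU1. The difference between the classes was not tested.

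Families and chromosomes pointed different ways. Class II receptors held 1359 sites at 303 genes, 63.1% of them higher in MSG, and class I receptors 38 sites at 28 genes, 55.3% higher. The most sites belonged to family 8, with 279 sites of which 73.8% were higher, and to family 4, with 226 sites of which 70.4% were higher. In family 9, 87.2% of 133 sites were higher, and OR9G1 alone held 102 of these sites, 95 of them higher. In family 10, 80.7% of 135 sites were higher. OR10D1M held 52 of these, all higher, and OR10AH1 28, of which 27 were higher. Both shares thus rest largely on these genes. Family 5 ran the other way, with 23.1% of 143 sites higher, and none of the 9 sites of family 12 was higher.

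**Figure D1:**
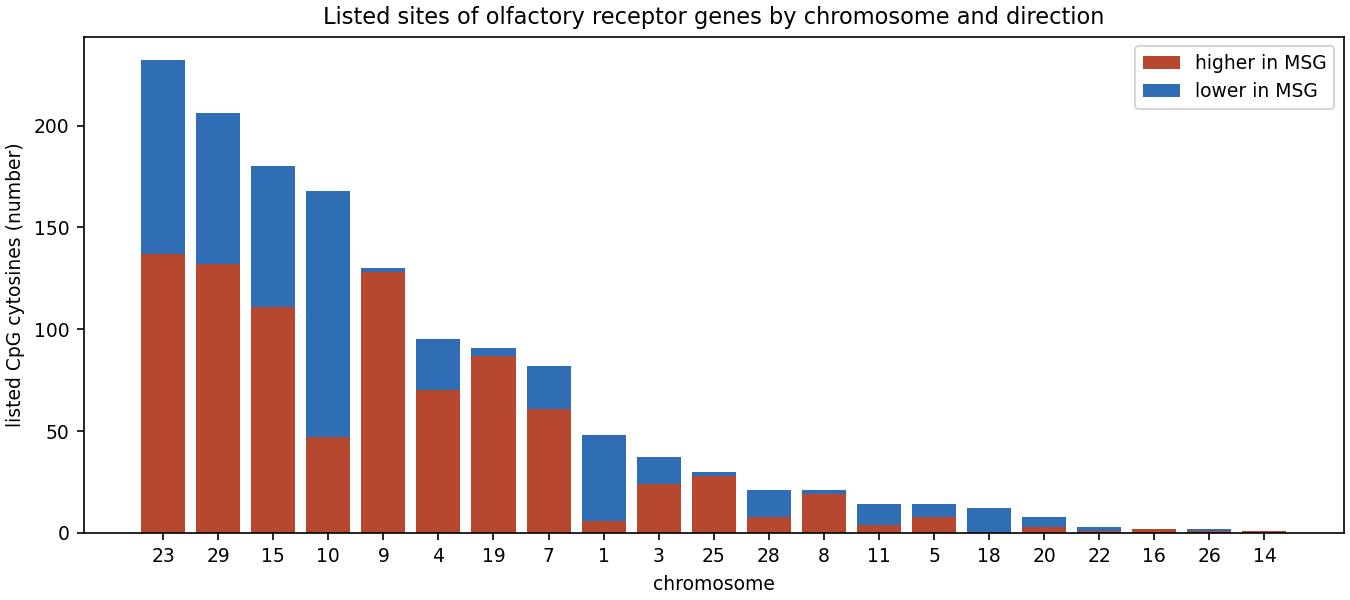
Number of listed CpG cytosines nearest to olfactory receptor genes on each chromosome (horizontal axis), stacked by direction of the difference between group means (higher or lower in MSG). Chromosomes 9 and 19 were almost entirely higher in MSG, with 98.5% of 130 and 95.6% of 91 sites, while chromosomes 10 and 1 were mostly lower, with 28.0% of 168 and 12.5% of 48 sites higher.

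Sites closer than 500 kb were joined into 55 loci on 21 chromosomes. The locus with the most sites was on chromosome 29 (26572886 to 28070694, ARS-UCD1.2, 21 genes, 206 sites), followed by a locus on chromosome 9 (104319722 to 104460600, 4 genes, 129 sites). Together they held 335 sites (24.0%). They also held 43 of the 63 olfactory receptor sites at which every cow of one group lay above every cow of the other.

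No single site passed the test across the table. The groups were compared at each site with limma, two-sided, with Benjamini-Hochberg adjustment over all 196275 sites and a threshold of 0.05. Of the 1397 olfactory receptor sites 0 passed, beside a background of 0% of all sites, and the exact permutation test over cows also gave 0. The lowest adjusted p was 0.0781 with limma. Before adjustment, limma gave a p under 0.05 at 692 sites (49.5%), beside 51.9% of all listed sites, and the exact permutation test at 596 (42.7%), beside 35.5%. The rows had been selected for their difference on the same cows, so a retest of them is not independent evidence. All p-values here rest on these 12 cows. Those of limma also draw on the spread of the other rows fitted together. They and the limma standard errors thus do not measure the spread between cows at a single site alone.

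At 63 olfactory receptor sites (4.51%) the groups did not overlap, beside 2.36% of all listed sites. Of these, 52 were higher in MSG, where the background was 1.39% of all sites, and 11 were lower, where it was 0.971%. Inside the loci on chromosomes 9 and 29 the groups separated at 43 of 335 sites (12.8%), and at the remaining olfactory receptor genes at 20 of 1062 (1.88%). The share outside these loci was below the background.

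At both loci most MSG cows and MRG replicate 3 had intermediate means where the other 5 MRG cows were near 0, with exceptions for MSG replicate 2 on chromosome 9 and MSG replicate 6 on chromosome 29. At the 128 chromosome 9 sites that were higher in MSG, the mean per cow was 41.7%, 71.6%, 40.6%, 41.4%, 42.2% and 42.9% in MSG replicates 1 to 6. In MRG replicates 1 to 6 it was 0.183%, 2.63%, 35.5%, 2.36%, 0.325% and 0.346%. MSG replicate 2 stood above its group and MRG replicate 3 stood just below the lowest MSG cow, so these means did not overlap. Group means were 46.7% ± 12.2 for MSG and 6.89% ± 14.05 for MRG (SD, 6 cows each).

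The pattern was the same in kind on chromosome 29. At its 132 sites that were higher in MSG, the mean per cow was 45.8%, 50.6%, 48.7%, 45.0%, 44.6% and 24.0% in MSG replicates 1 to 6. MRG replicates 1 to 6 stood at 2.06%, 3.31%, 39.4%, 4.36%, 2.11% and 2.06%. Here MSG replicate 6 was low, with 58 of its 130 values (44.6%) at exactly 0, and MRG replicate 3 was again high, so the groups overlapped. Sites of a chosen direction must differ that way, so the size of these gaps is a description. The choice of rows also favoured orders of cows that follow the groups. It did not set which cow within a group stood apart.

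The remaining 74 sites of the chromosome 29 locus were lower in MSG and mirrored this order. MSG replicates 1 to 6 stood at 44.3%, 40.7%, 45.1%, 43.3%, 40.9% and 66.9%. MRG replicates 1 to 6 stood at 85.1%, 85.7%, 50.2%, 87.7%, 87.5% and 88.7%. MSG replicates 1 to 5 and MRG replicate 3 were thus near the middle of the scale at sites of both directions, and the other MRG cows were near 0 or toward full methylation. MSG replicate 6 lay between them over the locus as a whole.

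The single values show the same split. On chromosome 9, 83.4% of the MSG values at higher sites lay between 25% and 75% and 3.04% were exactly 0. In MRG replicate 3, 69.1% lay in that range, and in the other 5 MRG cows 95.6% of values were exactly 0. On chromosome 29 the shares were 80.9% in range for MSG, 77.8% for MRG replicate 3, and 93.0% at exactly 0 for the other 5 MRG cows. An unmethylated cytosine and a thymine in a cow's own sequence give the same reading in this assay, and they cannot be told apart here.

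**Figure D2:**
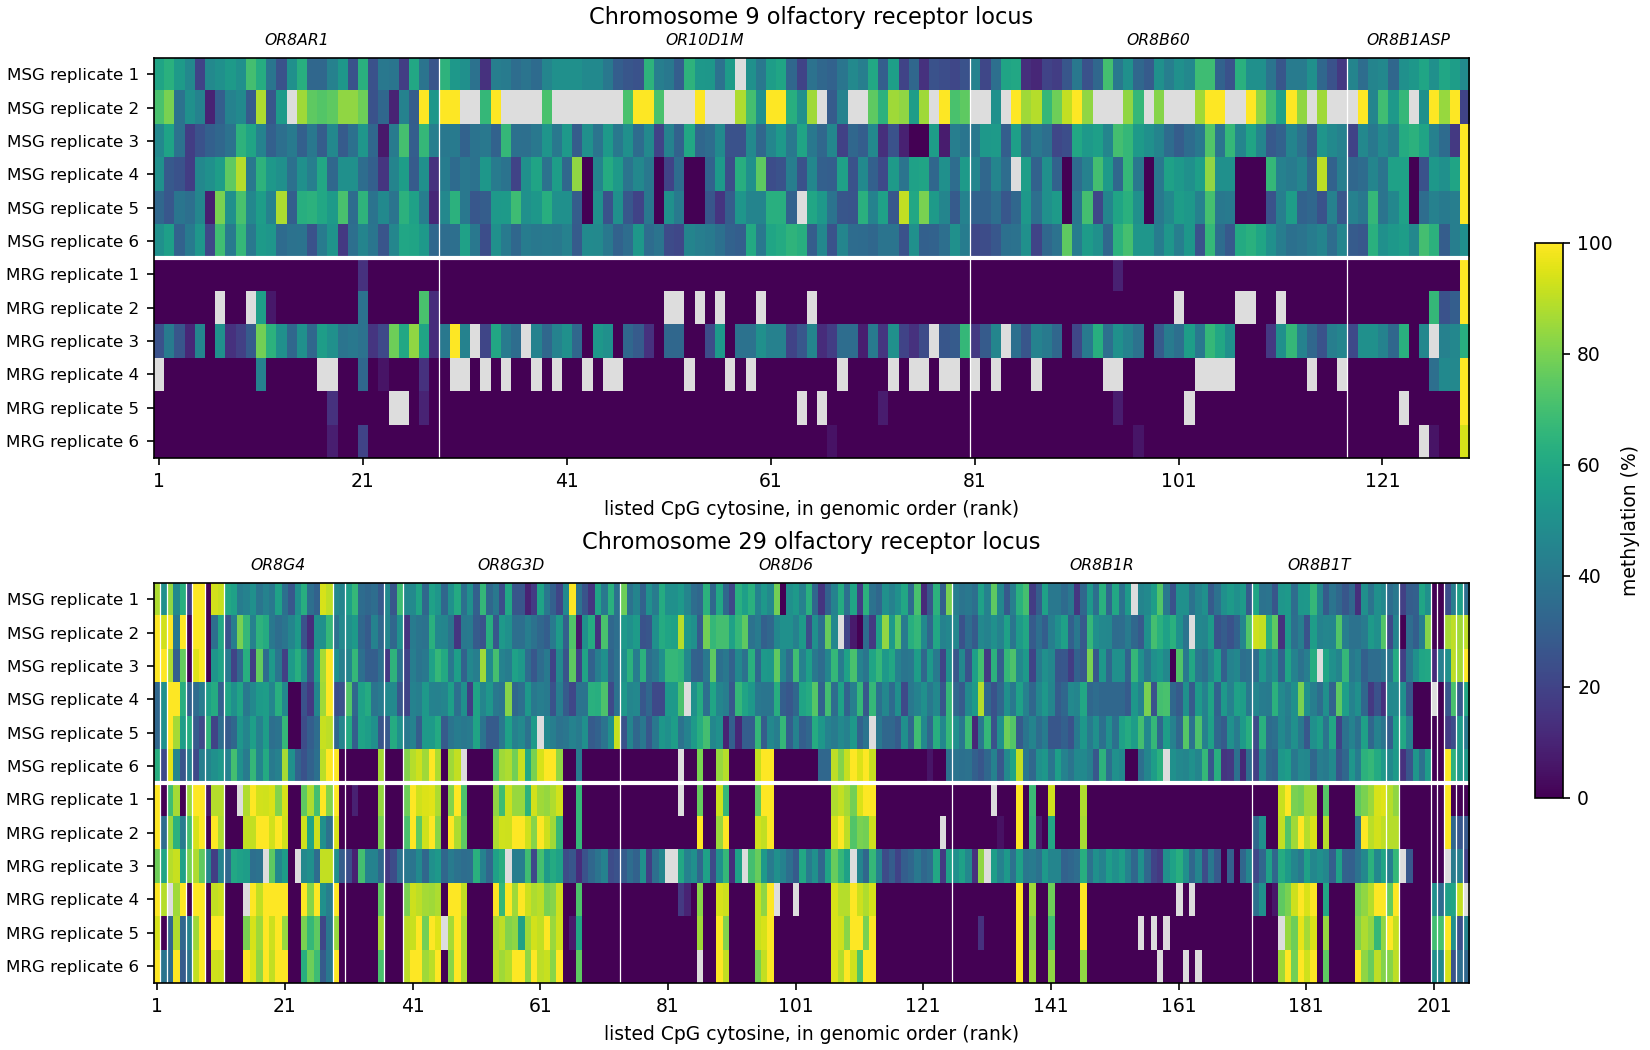
Percent methylation (colour, 0 to 100%) of each cow (rows) at each listed olfactory receptor site (columns, in genomic order) of the chromosome 9 locus with 129 sites and the chromosome 29 locus with 206 sites. Grey marks missing values, thin white lines separate genes, and the thick line separates MSG from MRG. Most cells of the MSG rows and of MRG replicate 3 are at middle values, apart from high cells of MSG replicate 2 on chromosome 9 and cells at 0 or high in MSG replicate 6 on chromosome 29, while most cells of the other MRG rows are at 0 or high.

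Leaving out MRG replicate 3, an alternative added after its values were seen, raised the number of sites without overlap from 63 to 227 (16.2%), beside 3.88% of all listed sites. On chromosome 9, 109 of 129 sites (84.5%) were then separate, and on chromosome 29, 90 of 206 (43.7%). Outside both loci the count was 28 of 1062 (2.64%). Leaving out MSG replicates 1, 3 or 6 gave 107 (7.66%), 96 (6.87%) and 108 (7.73%) separate sites, beside 3.76%, 3.90% and 3.89% of all listed sites.

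Coverage was uneven on chromosome 9. MSG replicate 2 had a value at 88 of the 129 sites (68.2%) and MRG replicate 4 at 97 (75.2%), beside 97.3% and 96.8% of all listed sites for the same cows. The other 10 cows had a value at 90.7% to 100% of the chromosome 9 sites. On chromosome 29 all 12 cows had a value at 95.1% to 99.5% of the sites. The part of missing values in the high mean of MSG replicate 2 was not tested.

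The chromosome 9 locus held OR8AR1, OR10D1M, OR8B60 and OR8B1ASP. OR10D1M (ENSBTAG00000047934, 104376183 to 104377115, plus strand) had 52 sites, all higher in MSG, 12 of them in its promoter and 4 inside the gene. Their mean was 40.5%, 77.8%, 37.2%, 39.5%, 42.2% and 40.3% in MSG replicates 1 to 6, and 32.1% in MRG replicate 3. The other MRG cows ranged from 0% to 0.154%. No MRG cow reached the lowest MSG cow, and 13 of its 52 sites separated the groups one by one, beside 2.36% of all listed sites. At one of these (104381486, intergenic, 5.30 kb from the start) MSG stood at 54.5% ± 24.6 and MRG at 2.38% ± 5.83 (SD, n = 6 each). The gene was named partly for such sites. Means over sites of a chosen direction favour separation, here and at the genes below, and no share over all genes is given.

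OR8B60 (104422393 to 104423328, minus strand) had 37 sites, all higher in MSG. MSG cows stood at 39.2%, 83.7%, 45.1%, 41.9%, 37.3% and 44.5%, MRG replicate 3 at 35.3%, and the other MRG cows at 0% to 0.246%. OR8AR1 (104333520 to 104335133, minus strand) had 28 sites, all higher, at 45.9% ± 4.91 for MSG and 8.91% ± 15.5 for MRG (SD, 6 cows each). Its MRG cows stood at 0.510%, 7.07%, 40.1%, 3.87%, 0.934% and 1.01%, so MRG replicate 3 lay above the lowest MSG cow, at 39.96%. The site of OR8AR1 at 104323040, intergenic, had the largest difference of a separate olfactory receptor site, 61.7 ± 15.2 points (SE, limma, n = 6 each). There, MSG cows stood at 50%, 47.4%, 64.7%, 88.9%, 71.4% and 66.7%, MRG replicate 3 at 18.8% and the other MRG cows at 0%.

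OR8B1ASP (104440502 to 104441428, plus strand) is a pseudogene in the ARS-UCD2.0 table. It had 12 sites, 8 of them in its promoter, and 11 were higher in MSG. At these 11 the MSG cows stood at 48.4%, 74.4%, 43.4%, 41.2%, 41.4% and 48.3%, and the MRG cows at 0%, 11.1%, 39.97%, 11.9%, 0% and 0.526%. The groups did not overlap. In the ARS-UCD2.0 table this gene lies between OR8B1R and OR8B1T, genes of the chromosome 29 locus, whereas the deposited tables, on ARS-UCD1.2, place it on chromosome 9. The table also lists OR8AR1, OR10D1M and OR8B60 close together, with other genes of family 8 between them. They lie near the genes PSMB1, TBP and PDCD2.

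On chromosome 29 the genes with the most sites were OR8D6, OR8B1R, OR8G3D, OR8B1T and OR8G4. OR8B1R (ENSBTAG00000054921, 27330651 to 27331580, minus strand) had 47 sites, 43 of them higher in MSG. At these its MSG cows stood at 45.2%, 44.6%, 44.2%, 43.9%, 47.3% and 40.2%. MRG replicate 3 stood at 40.7% and the other MRG cows at 0% to 0.357%. MRG replicate 3 was just above the lowest MSG cow, and 9 of the 47 sites of the gene separated the groups, beside 2.36% of all listed sites. The 4 lower sites stood at 42.0% ± 7.05 for MSG and 80.7% ± 14.8 for MRG (SD, 6 cows each).

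OR8D6 (ENSBTAG00000017495, 27306332 to 27307273, plus strand) had 52 sites, 39 of them higher. The MSG cows stood at 46.4%, 54.2%, 49.3%, 45.6%, 42.9% and 2.89% at these, and the MRG cows at 0%, 0%, 40.2%, 0.721%, 0% and 0%. MSG replicate 6 was at exactly 0 at 34 of its 38 values, between positions 27283562 and 27315454, so the groups overlapped. At OR8B1R, the next gene, the same cow was at 0 at 2 of 42 values. Its level thus changed between the sites assigned to these genes.

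The same cow also stood apart on the other side of OR8D6. OR8G3D (27260279 to 27261271, plus strand) had 34 sites, 13 higher and 21 lower in MSG. At the higher sites MSG replicate 6 was at 0% while the other MSG cows were at 43.6% to 48.9%, and MRG replicate 3 was at 34.6%. The lower sites stood at 84.3% in MSG replicate 6, at 37.5% to 44.1% in the other MSG cows, at 46.5% in MRG replicate 3 and at 85.3% to 91.6% in the other MRG cows. The neighbouring gene TMEM225, no olfactory receptor, had 40 listed sites in the locus. Its 32 higher sites were at 0% in MSG replicate 6, at 41.4% in MRG replicate 3, at 44.1% to 50.2% in the other MSG cows and at 0% to 0.481% in the other MRG cows.

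OR8G4 (27027649 to 27028593, plus strand) had 10 of 17 sites lower in MSG. The MSG cows were within 43.1% to 47.9% at these, MRG replicate 3 was at 48.8%, and the other MRG cows were at 85.8% to 97.0%. OR8B1T (27402599 to 27408120, minus strand) had 12 of 21 sites lower. MSG stood at 44.5% ± 3.14 there and MRG at 80.4% ± 14.8 (SD, n = 6 each), with MRG replicate 3 at 50.4%. OR8C26 (27454639 to 27455571, minus strand) had 2 sites, both lower, at 43.6% ± 6.93 in MSG and 83.3% ± 14.4 in MRG. At the lower sites of OR8G4, OR8B1T and OR8C26 each MRG cow lay above each MSG cow, although at OR8B1T the nearest pair, at 50.41% and 50.38%, were almost level.

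Sites with and without values at 0 ran opposite ways on chromosome 29. Of its 133 sites with a cow at exactly 0, 129 were higher in MSG, and of its 73 sites with no cow at 0, 3 were. Most MRG cows were near 0 or toward full methylation at this locus, so this split largely follows direction and is only a description. Over all olfactory receptor genes 770 of 1135 sites with a cow at 0 (67.8%) were higher, beside 51.5% of all such listed sites. Of the 262 sites with no cow at 0, 108 (41.2%) were higher, beside 57.3%. When limma was fitted on the 42667 listed sites with no cow at 0 alone, 196 of the 262 olfactory receptor sites passed the adjusted threshold (74.8%), beside a background of 73.1%. Of these, 121 were lower and 75 higher in MSG. In the chromosome 29 locus 69 passed, 66 of them lower, so the majority of lower calls rested largely on this locus. Outside both loci 127 passed, 72 higher and 55 lower. Without OR4C1E as well, 47 were higher and 55 lower. The count of 0 over the whole table and the count of 196 differ in which rows were fitted together.

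Tiles gave the only olfactory receptor rows past the test on their whole table. Of the 10 tiles, 8 passed limma with Benjamini-Hochberg adjustment over all 1227 tiles (adjusted p = 0.0347 for each), beside a background of 73.3%. All 8 were higher in MSG and lay in the loci on chromosomes 9 and 29. The share is near the background of this selected table. Higher in MSG were 8 of 10 tiles, beside 56.2% of all tiles. The exact permutation test over cows, adjusted in the same way, kept 6 of the 10. Its share over all tiles is not given, so this count has no background. The groups did not overlap in 4 tiles, beside 6.03% of all tiles. Tiles overlap by 250 bases, and the 10 tiles formed 6 separate regions.

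OR10D1M had 1 tile, 8.07 kb from its start (104384251 to 104384750, intergenic). MSG replicates 2 to 6 stood at 78.7%, 52.4%, 64.0%, 58.3% and 56.7%, with no value for MSG replicate 1. MRG stood at 26.8%, 30.2%, 46.3%, 34.3% and 23.9% in replicates 1, 2, 3, 5 and 6, with no value for MRG replicate 4. The groups did not overlap, and the difference was 29.7 ± 9.65 points (SE, limma, n = 5 each). Without MSG replicate 2 the adjusted p was 0.0519 with limma.

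OR8B1ASP had 2 overlapping promoter tiles, and neither had a value for MRG replicate 5. The tile nearer the start (104438251 to 104438750, 1.75 kb away) stood at 63.6%, 64.1%, 63.3%, 56.6%, 56.9% and 69.0% in MSG. In MRG replicates 1, 2, 3, 4 and 6 it stood at 6.90%, 2.38%, 63.4%, 3.57% and 18.9%. MRG replicate 3 lay within the MSG range, so the groups overlapped. The difference of 43.2 ± 10.97 points (SE, limma, n = 6 and 5) was the largest of the 10 tiles. In the other tile (104438001 to 104438500) MRG replicate 3 was the highest MRG cow, at 35.3%, below the lowest MSG cow, at 37.0%.

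OR8B1R had 3 tiles. The pair farthest from the gene, about 31.4 and 31.7 kb from its start (27363001 to 27363500 and 27363251 to 27363750), separated the groups. The first stood at 60.2%, 43.8%, 45.9%, 59.5%, 56.6% and 49.0% in MSG and at 11.8%, 23.0%, 32.9%, 13.3%, 15.5% and 16.7% in MRG. The second averaged 42.2% ± 8.23 over 6 MSG cows and 10.5% ± 9.44 over 5 MRG cows (SD), with no value for MRG replicate 4. The remaining tile, 12.1 kb away (27319001 to 27319500), stood at 51.2% ± 6.93 for MSG and 24.99% ± 16.5 for MRG (SD, 6 cows each). There MRG replicate 3, at 56.3%, lay above 5 of the 6 MSG cows.

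OR8D6 had 2 overlapping tiles, 6.42 and 6.67 kb from its start. The tile from 27312751 to 27313250 stood at 43.5%, 57.4%, 49.2%, 45.3%, 43.3% and 6.17% in MSG and at 5.56%, 5.30%, 36.2%, 10.3%, 5.79% and 5.73% in MRG. In the tile from 27313001 to 27313500 MSG replicate 6 was at 0%, the other MSG cows at 35.5% to 45.1%, MRG replicate 3 at 32.6% and the other MRG cows at 0%. Both tiles passed limma although their groups overlapped, and the second missed the threshold in 6 of 16 alternatives, with an adjusted p of up to 0.0527.

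OR4K55B on chromosome 10 (27540317 to 27541255, plus strand) had the 2 tiles that did not pass (adjusted p = 0.0934 with limma, difference of -30.6 ± 17.0 points, SE, n = 6 and 5). Both overlapping tiles held the same values, so they are 1 measurement. MSG cows were at 0%, 63.0%, 48.0%, 0%, 66.7% and 0%, and MRG cows at 0%, 51.5%, 63.6%, 93.8% and 92.1%, with no value for MRG replicate 3. Without MRG replicate 1 the adjusted p was 0.0454 with limma.

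**Figure D3:**
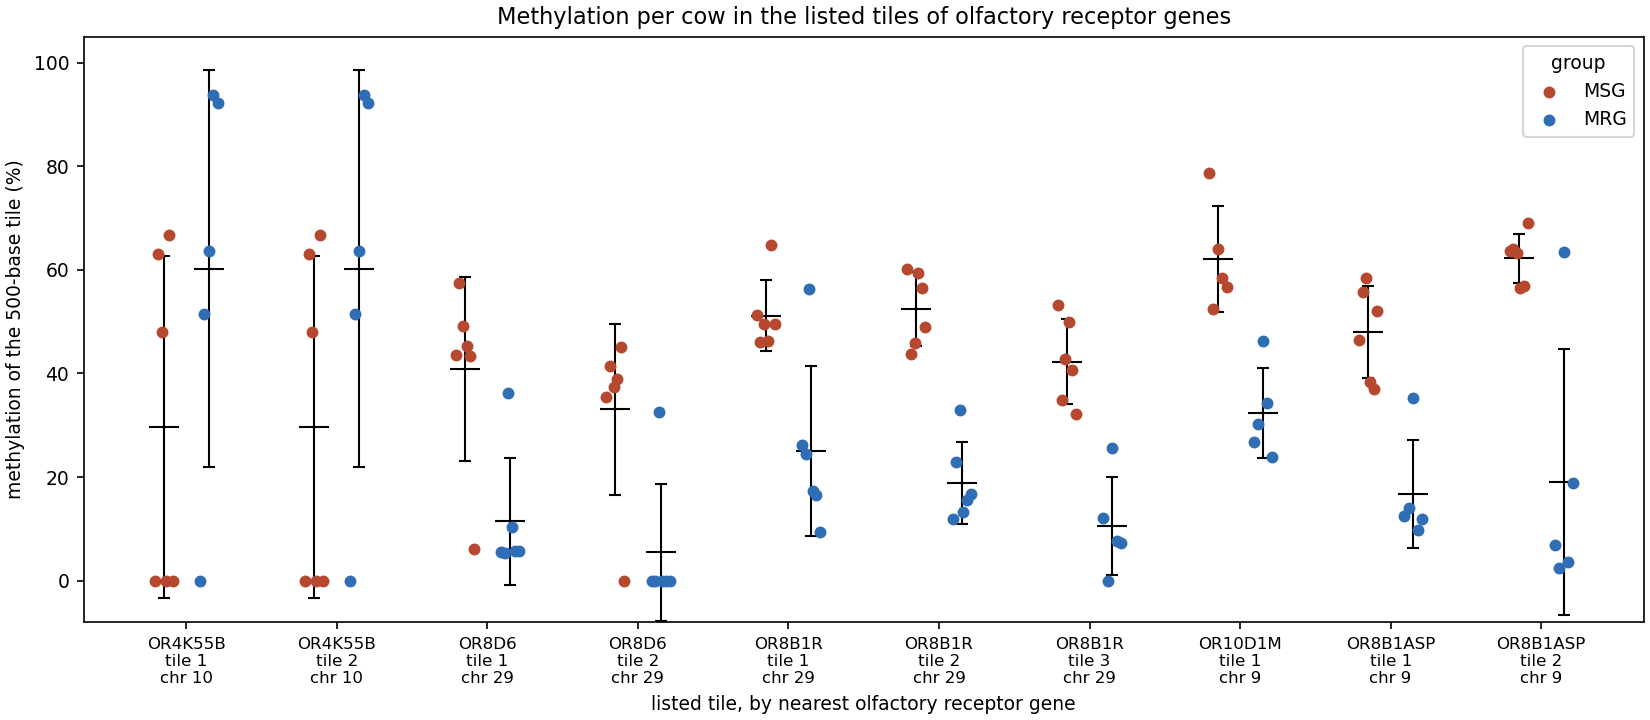
Percent methylation of the 10 listed tiles of olfactory receptor genes, 1 point per cow, with MSG and MRG in separate colours; the horizontal bar is the group mean and the whiskers are 1 SD. In the tiles of OR8D6, OR8B1R, OR10D1M and OR8B1ASP the MSG points are mostly higher and the highest MRG point is replicate 3, while in both tiles of OR4K55B the groups spread over most of the scale.

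Other genes with many sites had other orders of cows. OR9G1 on chromosome 23 (21609428 to 21610363, minus strand) had 102 sites, more than any other olfactory receptor gene, of which 95 were higher in MSG and 0 lay inside the gene, at a median of 42.7 kb from its start. At the 95 sites MSG stood at 1.36%, 38.4%, 44.1%, 42.4%, 75.6% and 75.2%, and MRG at 1.12%, 0.664%, 36.1%, 35.3%, 0.589% and 2.26%. MSG replicate 1 was with the low MRG cows, so the groups overlapped, and values fell near 0, near 40 and near 75.

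A pair of genes in one locus of chromosome 15 had nearly this order of cows. OR4A47WP, a pseudogene (84113199 to 84114125, plus strand), had 28 sites, all higher, at 0%, 39.3%, 37.9%, 39.3%, 79.0% and 77.4% in MSG and 0%, 0%, 33.1%, 36.5%, 0% and 0.350% in MRG. OR4C160 (84232029 to 84232958, plus strand), named after its values were seen, had 12 sites, at 0%, 48.2%, 47.6%, 41.1%, 80.9% and 81.1% in MSG and 0%, 0%, 30.1%, 39.4%, 0% and 0% in MRG. In all 3 genes MSG replicate 1 and MRG replicates 1, 2, 5 and 6 were at or near 0, and MSG replicates 5 and 6 were highest.

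OR4C1E on chromosome 19 (181613 to 182539, minus strand) differed in kind, since only 1 of its 35 sites had a cow at 0. All 35 were higher in MSG, at a median of 130 kb from its start. The MSG cows stood at 84.3% to 89.6%, with a mean of 87.1% ± 1.95 (SD, n = 6). MRG stood at 34.5%, 78.8%, 35.6%, 79.3%, 35.6% and 83.2%, so 3 MRG cows were near 35% and the others just below the MSG range. The groups did not overlap. In the limma fit on sites with no cow at 0, 25 of its 34 sites (73.5%) passed, all higher in MSG, near the background of 73.1%.

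OR10AH1 on chromosome 25 (38575157 to 38576146, plus strand), named after its values were seen, also had a methylated MSG group. At its 27 higher sites MSG stood at 81.5% to 96.1% and MRG at 85.3%, 11.3%, 52.9%, 94.0%, 11.1% and 34.2%. The groups overlapped through MRG replicates 1 and 4.

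Genes on chromosome 4 shared a low MRG replicate 1. OR2F2B (107115299 to 107116252, plus strand) had 15 sites, all higher, 9 of them in its promoter. MSG stood at 91.4%, 57.8%, 90.7%, 94.0%, 89.2% and 90.8%, and MRG at 0.833%, 94.2%, 54.4%, 85.7%, 6.85% and 53.3%. OR2F1 (107134588 to 107135541, plus strand) had 5 sites at 82.3% to 90.6% in MSG and 0%, 81.9%, 78.6%, 66.7%, 40.2% and 78.1% in MRG, without overlap. The nearest pair was almost level and averaged over different sites. MSG replicate 5 stood at 82.3% over 3 of the sites, and MRG replicate 2 at 81.9% over all 5. OR2R3 (106900981 to 106901922, minus strand) had 5 sites at 89.0% to 95.7% in MSG, with MRG replicate 1 at 0%, MRG replicate 5 at 38.1% and the other MRG cows at 75.9% to 95.7%.

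OR10AC1, in the same locus (106921257 to 106922234, minus strand), had sites of both directions. Its 10 higher sites stood at 92.5% ± 3.68 in MSG and 63.2% ± 32.3 in MRG, with MRG replicate 1 at 6.67%. Its 13 lower sites stood at 3.21% ± 2.53 for MSG and 37.8% ± 31.2 for MRG (SD, 6 cows each), with MRG replicate 1 highest at 82.6%. MRG replicates 2 and 4 were in the MSG range at the lower sites, at 0% and 4.40%.

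Receptors with mostly lower sites were found on chromosomes 10, 23, 1 and 11. OR5AU1 on chromosome 10 (25950779 to 25951714, plus strand) had 37 of 38 sites lower, at 45.1%, 43.0%, 92.2%, 0%, 1.75% and 27.3% in MSG and 47.7%, 90.3%, 46.3%, 76.2%, 93.3% and 93.4% in MRG. MSG replicate 3 was near the top of the scale, so the groups overlapped. OR11J4, in the next locus of that chromosome (26990020 to 26990958, minus strand), had 13 of 14 sites higher, at 53.3% ± 29.1 for MSG and 18.5% ± 16.9 for MRG (SD, 6 cows each).

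OR1F12 on chromosome 23 (30605335 to 30606276, minus strand) had 12 of 13 sites lower, at 32.5%, 61.1%, 3.51%, 25.1%, 9.09% and 0% in MSG and 63.7%, 7.46%, 65.1%, 46.1%, 82.4% and 77.6% in MRG. OR2B7, on the same chromosome and named after its values were seen, had 10 sites, all lower, at 44.3%, 84.2%, 5.08%, 42.4%, 8.46% and 3.68% in MSG and 76.3%, 8.64%, 83.4%, 55.8%, 85.5% and 90.3% in MRG. In both genes MSG replicate 2 was high and MRG replicate 2 low, against the direction of their groups.

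OR5H30 on chromosome 1 (42466127 to 42467104, plus strand) had 4 sites, all lower, at 51.4% ± 17.8 for MSG and 82.9% ± 7.19 for MRG (SD, 6 cows each). The highest MSG cow was at 67.4% and the lowest MRG cow at 73.6%, so the groups did not overlap. OR5H33, in the same locus and named after its values were seen, had 14 sites, all lower, at 0% in 5 MSG cows and 81.9% in MSG replicate 2. Its MRG cows ranged from 0% to 50.2%.

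Sites within 1 kb of a start or in an exon were few. Within 1 kb lay 114 of the 1397 sites, 59 of them higher in MSG. OR10D1M had 6 sites of this kind, and OR2F2B had 4. OR9S15 on chromosome 3 (119648860 to 119649810, plus strand) had 3 sites inside the gene, higher in MSG, at 90.4% ± 11.6 for MSG and 61.5% ± 39.5 for MRG (SD, 6 cows each). OR1N2 on chromosome 11 (93611260 to 93612213, minus strand) had 5 sites, all lower, at 40.7% in MSG replicate 4 and 0% in the other MSG cows. Its MRG cows stood at 0%, 50.8%, 75.3%, 0%, 49.5% and 39.5%. OR4F63B on chromosome 10 (28173165 to 28174150, minus strand) had 4 of 5 sites lower, at 20.04% ± 22.6 for MSG and 48.7% ± 43.2 for MRG. In each of OR9S15, OR1N2 and OR4F63B the groups overlapped.

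**Figure D4:**
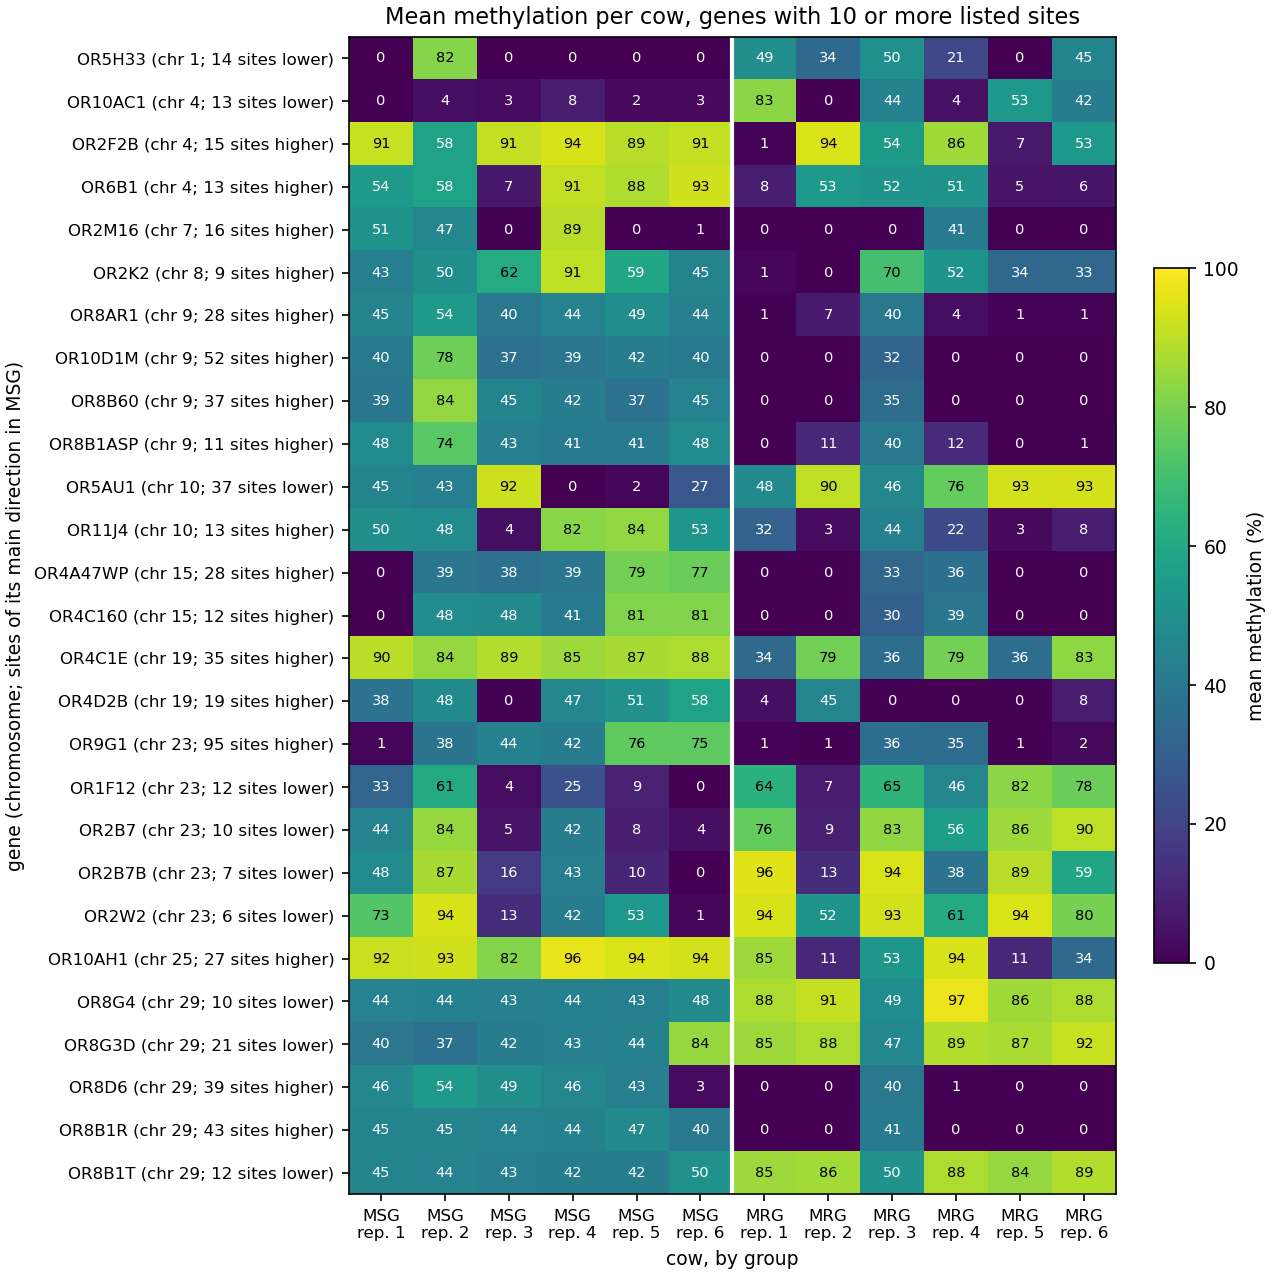
Mean percent methylation per cow (columns; MSG left, MRG right of the line) for the 27 olfactory receptor genes with 10 or more listed sites (rows, with chromosome and the number of sites averaged), over the sites of each gene's more frequent direction. Genes of chromosomes 9 and 29 share a column pattern in which MRG replicate 3 is with the MSG cows, while OR9G1, OR4A47WP and OR4C160 share another in which MSG replicate 1 is at or near 0.

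Cows differed in how often an olfactory receptor site was unmethylated. In MRG replicates 1, 2, 5 and 6 between 42.7% and 45.6% of values at olfactory receptor sites were exactly 0. MRG replicate 3 was at 16.4%, MRG replicate 4 at 26.3% and the MSG cows at 11.1% to 20.3%. Over all listed sites the share was 20.1% to 23.0% in every cow of both groups. Outside the loci on chromosomes 9 and 29 the share was 33.3% to 36.1% in MRG replicates 1, 2, 5 and 6, 19.5% in MRG replicate 3, 13.8% in MRG replicate 4 and 13.7% to 26.4% in the MSG cows. MRG replicate 4 thus moved from above all MSG cows into their range. Whether the range over cows differs between olfactory receptor sites and other sites was not tested.

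Genes of olfactory signalling and receptor choice had sites of both directions. Of 30 such genes 17 had 232 sites, 135 higher and 97 lower in MSG (58.2% higher), and 0 had a tile. With limma 0 of these sites passed the adjusted threshold and 98 (42.2%) had an unadjusted p under 0.05, beside 51.9% of all listed sites, and the exact permutation test gave 0 across the whole table. ANO2, the calcium-activated chloride channel of olfactory neurons, had 51 sites, 33 of them higher. REEP1, a receptor transport protein, had 49 sites, 36 higher, and SLC24A4, a sodium, potassium and calcium exchanger, had 45 sites, 29 higher. RTP1, a chaperone that brings odorant receptors to the cell surface, had 20 sites, of which 18 were lower, and all 20 averaged 64.5% ± 23.1 for MSG and 87.0% ± 2.08 for MRG (SD, 6 cows each).

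Markers of blood cell types also had listed sites. Higher in MSG were 143 of 200 sites at T cell genes, 23 of 31 at B cell genes, 18 of 23 at natural killer cell genes, 25 of 26 at CD163 of monocytes and 9 of 10 at MPO of granulocytes. At erythroid and platelet genes 82 of 184 were higher. The T cell genes did not all run one way. At LEF1, a T cell transcription factor with 54 of 69 sites higher, the mean was 63.6% ± 12.04 for MSG and 42.7% ± 11.6 for MRG (SD, 6 cows each). At the T cell coreceptor gene CD4, 0 of 12 sites were higher, with means of 46.4% ± 6.46 for MSG and 84.4% ± 16.3 for MRG, and at CD8A 2 of 5 were. The part of blood cell makeup in the olfactory receptor differences was not tested.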

How the data were processed

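Per the labels' protocols, DNA from blood was converted enzymatically: TET2 and T4-BGT protected modified cytosines and APOBEC3A deaminated the rest. The submitters' processing notes name fastp 0.23.1, Bismark, DRAGEN, ChIPseeker 1.32.1 and the build ARS-UCD1.2. The sources used here do not state the differential test. Percent methylation of every cow was deposited by the authors for single cytosines by strand and for tiles of 500 bases every 250 bases, per the file headers. They also deposited a signed difference, used here as a score in percentage points, and a p-value and q-value. The smallest absolute difference among olfactory receptor rows was 25.1 points at sites and the largest q-value 0.00993 in the authors' deposited table. Sites that missed these thresholds were not analysed here. A genomic thymine reads as an unmethylated cytosine, and its part in the values was not tested.

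A further 36 columns of the tile table, of coverage and read counts, carry no cow name and were not used, so the depth behind a value is unknown. Replicate numbers name cows in record order and pair none. Both groups had values for 5 or 6 cows in each row. limma 3.58.1 (R 4.3.3) was fitted to percent methylation over each whole table, with no covariate, two-sided, Benjamini-Hochberg adjusted. The exact permutation test used all regroupings of the cows with a value in a row, 924 where no cow was missing, with a smallest p of 0.00216. Rows with missing cows had fewer regroupings. The tile of OR10D1M, with 5 cows per group and no overlap, had a permutation p of 0.00794. How large a difference limma can find among rows selected in this way was not tested.

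Members and lists were chosen with earlier results of these data known. Named genes are those with a tile, the 8 with the most sites, the 6 largest separate differences in each direction, and the 6 with the most sites in an exon or within 1 kb of the start, plus the leading genes of loci and others chosen after their values were seen. Alternatives were other fits, each cow left out, only rows without a cow at 0, only complete rows, stricter differences, and CpGs, runs (gaps under 1 kb) or genes counted once. The gene table of ARS-UCD2.0 gave names, biotypes and neighbours only.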

Additional observations from a re-analysis of the deposited data

Results flagged for a closer look

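A cow was counted as standing apart when its gap to the nearest cow of its group, as a share of the group's range, passed Dixon's critical value (0.625 for 6 cows, 0.710 for 5). This held for 32 of 86 groups. Many of the groups share sites, and they were chosen with earlier results of these data known. The critical value therefore serves only as a descriptive cut-off. MRG replicate 3 stood apart at the chromosome 9 locus (gap share 0.931) and at higher and lower sites of the chromosome 29 locus (0.938 and 0.906). It did so in the tiles of OR8D6 (0.838 and 1), OR8B1R (0.642) and OR8B1ASP (0.834 and 0.729). Over sites of 1 direction per gene its gap share was 0.982 for OR8D6, 0.991 for OR8B1R, 0.995 for OR10D1M, 0.703 for OR8B1ASP, 0.993 for OR8B60, 0.861 for OR8G3D, 0.834 for OR8AR1, 0.768 for OR8G4, 0.883 for OR8B1T and 0.758 for OR8C26.

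MSG replicate 6 stood apart at the chromosome 29 locus, low at higher sites (0.775) and high at lower sites (0.833), in both tiles of OR8D6 (0.725 and 0.788), over the higher sites of OR8D6 (0.780) and over the lower sites of OR8G3D (0.858). It was also highest over the lower sites of OR8G4 (0.768), where it stood at 47.9% beside 43.1% to 44.2% in the other MSG cows. MSG replicate 2 stood above its group at the chromosome 9 locus (0.926), where it lacked values most often, and at OR10D1M (0.875), OR8B1ASP (0.785) and OR8B60 (0.830). It stood below its group at OR2F2B (0.868). MSG replicate 5 was highest in the tile of OR8B1R at 27319001 (0.724), and MSG replicate 4 was the only MSG cow above 0 at OR1N2 (1).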

How the results depend on the processing

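The share of olfactory receptor sites higher in MSG, 62.8%, turned to 41.2% with only sites with no cow at 0 and to 48.5% with only sites inside the gene or in its promoter. The share over all olfactory receptor sites was 58.7% with each run of sites counted once, 54.9% with each gene once and 69.0% at 40 points or more. It was 58.2% without the chromosome 9 and 29 loci and 54.5% without OR9G1 too. Tiles past the test numbered 8, and 4 with complete rows (4 tiles left), 5 without the second tile of each overlapping pair (6 left), 6 by the exact permutation test, and 5 to 9 with 1 cow left out, with 5 without MSG replicate 2. No share over all tiles is given for these alternatives. With overlapping tiles merged, 5 of 6 were higher in MSG. Sites past the test went from 0 to 196 with only rows with no cow at 0. Sites at which the groups do not overlap went from 63 to 22 with no cow at 0, 39 with complete rows, 20 without the loci, and 73 to 227 with 1 cow left out.

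With only sites with no cow at 0 the mean difference turned to -33.5 points at OR8D6, over 12 sites, and -38.7 at OR8B1R, over 4 sites. It turned to -23.1 at OR8B1ASP, 36.8 at OR5AU1, 30.4 at OR10AC1 and 34.0 at OR1F12, over 1 site each. The filter left these genes no site of their more frequent direction. It thus fixed the sign of each turn, and the same sites did not change direction. No depth was available to set limits. No paired analysis was possible because the labels carry no replicate numbers; those used here follow record order and pair no cows.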
